A study of Mus musculus with 2 samples.

Results

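The keratin genes of the mouse form a family on chromosomes 11 and 15, and their chromatin accessibility was examined in adrenal gland. Members were the protein-coding genes of GENCODE M21 whose symbol is Krt followed by a number. This rule gave 53 genes of 21802 protein-coding genes, 27 on chromosome 11 and 26 on chromosome 15. They were divided by their known site of expression into 5 simple-epithelial, 12 epidermal, 6 internal stratified, 15 hair shaft and 8 root sheath keratins, with 7 others. Accessible sites were DNase I hypersensitive sites (DHSs), short stretches of chromatin that the nuclease cuts more often than their surroundings. The data came from DNase-seq of adrenal tissue from male B6CASTF1/J mice, an F1 hybrid of the B6 and CAST inbred strains, at 25 days of age. There was 1 group of 2 libraries, with no treatment named in the labels, called replicate 1 and replicate 2, which the labels describe as biological replicates from separately numbered animals with the same donor code. No control group or second condition was present, so every statement below is a level in both libraries and no test was run.

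Keratins are intermediate filament proteins that assemble as obligate pairs of an acidic type I and a basic type II chain. In the mouse the type I genes lie together on chromosome 11 and the type II genes on chromosome 15, except that the type I gene Krt18 sits beside its partner Krt8 at the end of the type II cluster. Krt8 and Krt18 are the main pair of simple epithelia, joined in ducts and gut-type epithelia by Krt7, Krt19 and Krt20. Epidermal keratins such as Krt5 with Krt14, and Krt1 with Krt10, mark basal and suprabasal keratinocytes. Hair keratins fill the cortex and cuticle of the hair shaft and are crosslinked by the keratin-associated proteins. The adrenal gland consists mainly of steroid-producing cortex and chromaffin cells of the medulla, surrounded by a fibrous capsule, and holds no stratified epithelium or hair follicle.

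The 2 libraries differed in how many DHSs were listed and how tall they were. Replicate 1 had 130945 DHSs with a median height of 1.01, and replicate 2 had 157786 with a median of 0.72, where height is the authors' deposited signal. Heights are therefore given for each library, and their mean over both was used only to rank sites and to compare settings. The tissue label was checked with marker lists: promoter DHSs were present in both libraries at 5 of 5 adrenal cortex genes and at 3 of 5 chromaffin cell genes, beside 65.8% of all protein-coding genes, so the chromaffin count does not exceed the share of all genes. Among markers of other cell types, 3 and 3 of 7 mesothelial genes, 3 and 4 of 7 kidney tubule genes, and 1 and 3 of 5 keratinocyte genes had one in replicates 1 and 2. All these counts stood below the shares of all protein-coding genes, 69.4% in replicate 1 and 69.1% in replicate 2. The keratinocyte list itself contains 4 keratins described here. In bulk tissue an open site in few cells and a weak site in many cells cannot be told apart.

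Most keratin promoters carried no DHS in the adrenal gland. A gene counted as having an open promoter if at least 1 of its protein-coding starts had a DHS no more than 1 kb away. By that rule 7 of 53 keratins (13.2%) were open in replicate 1 and 6 (11.3%) in replicate 2, whereas the shares among all protein-coding genes were 69.4% and 69.1%. Only 4 keratins, Krt8, Krt10, Krt80 and Krt86, were open in both, against the 65.8% of all genes. A further 5 were open in a single library, Krt18, Krt222 and Krt32 in replicate 1 and Krt5 and Krt31 in replicate 2, and 44 were closed in both. The 5′ ends of keratin genes also lay far from any DHS. The median distance to the nearest DHS was 7769 bp in replicate 1 and 8745 bp in replicate 2 for keratins, and 21 and 34 bp for all genes. It exceeded 5 kb for 35 and 36 of the 53 keratins, or 66% and 67.9%, compared with 25.1% and 23.6% of all genes.

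**Figure D1:**
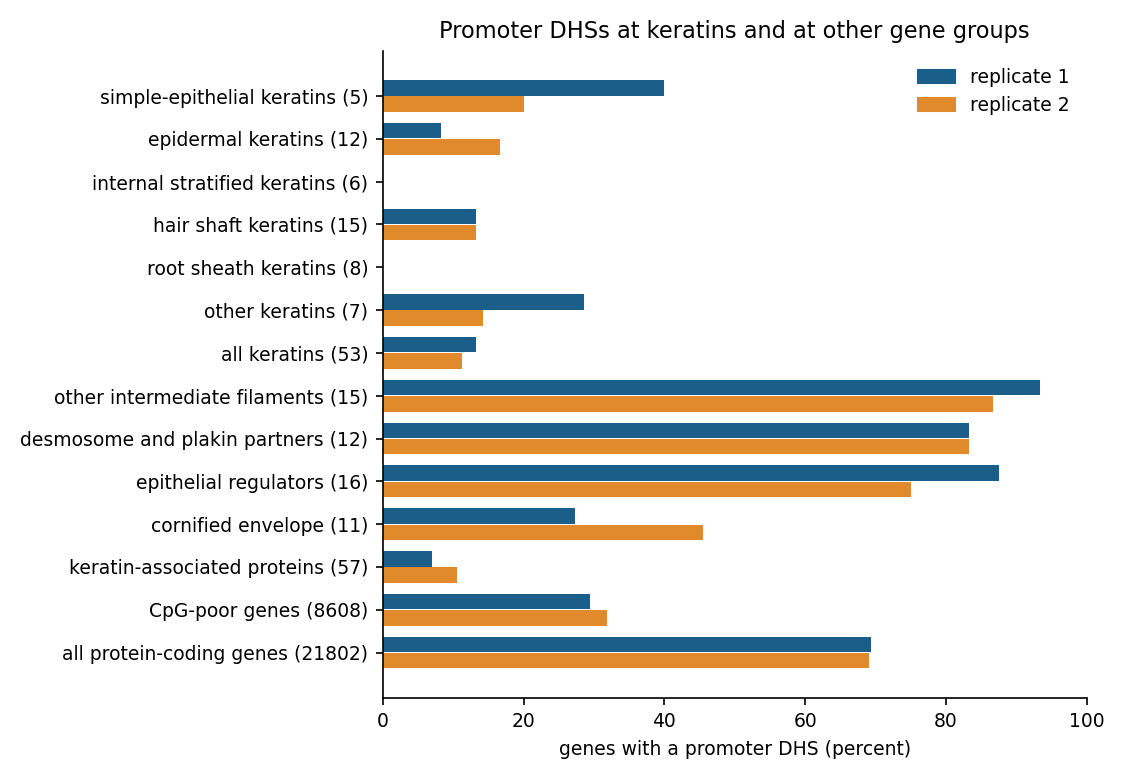
Share of genes with a promoter DHS (horizontal axis, percent) in replicate 1 and replicate 2, for each keratin class, for gene lists related to keratins, for CpG-poor genes and for all protein-coding genes, with the number of genes in parentheses. Keratins as a whole stand at 13.2% and 11.3%, below CpG-poor genes at 29.4% and 31.8% and all genes at 69.4% and 69.1%.

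Simple-epithelial keratins had a promoter DHS at a higher share than epidermal and hair keratins, but on very few genes. Of the 5 simple-epithelial keratins, 2 were open in replicate 1 and 1 in replicate 2. Of the 35 keratins of the epidermal, hair shaft and root sheath classes, 3 were open in replicate 1 (8.57%) and 4 in replicate 2 (11.4%). Both classes stood below the 69.4% and 69.1% of all genes. In both libraries the counts were 1 of 5 against 2 of 35, so a change at a single gene alters the contrast. Its direction in these counts turned with the window and the annotation. Within 0.5 kb the counts in both libraries were 0 of 5 against 2 of 35. With RefSeq starts, an alternative chosen after seeing the data, they were 0 against 1. By library, the direction turned in replicate 2 only. Within 0.5 kb replicate 1 had 1 of 5 against 3 of 35, and replicate 2 had 0 against 3. With RefSeq starts replicate 1 had a promoter DHS at Krt18, against Krt32 and Krt86. The direction held in each library within 2 kb, with the own 5′ end only, with the 50000 strongest DHSs and with the shorter peak list. By class, open keratins numbered 1 and 2 of 12 for the epidermis, 2 and 2 of 15 for the hair shaft, and 2 and 1 of the 7 others. None of the 6 internal stratified keratins, which line the mouth, oesophagus and cornea, and none of the 8 root sheath keratins was open in either library. The tallest promoter DHSs did not lie at simple-epithelial keratins: the highest of that class reached 1.71 and 1.27 in replicates 1 and 2, and the highest of the epidermal and hair classes 10.6 and 7.58. The latter belong to Krt10, which was open only through an internal start far from its 5′ end. Without Krt10 the highest of the epidermal and hair classes was Krt86, at 3.02 and 0.95, so the order turned in replicate 2.

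Krt8, the type II keratin of simple epithelia, had a weak DHS far upstream of its start and a taller one inside its first intron. The upstream DHS had a height of 1.71 in replicate 1 and 1.27 in replicate 2, and its centre lay 978 bp upstream of the annotated start, at the edge of the promoter window. In both libraries it lay in an intron of Gm36026, a long non-coding RNA gene on the opposite strand that starts inside Krt8. The intronic DHS, 1412 bp downstream of the start and outside the window, measured 3.75 and 2.99. No DHS covered the Krt8 start itself in either library. Of all open promoters, 84.5% in replicate 1 and 83.8% in replicate 2 were at least as high as the upstream DHS of Krt8. RefSeq places the Krt8 start 140 bp further inside the gene than GENCODE, which puts the upstream DHS 1039 and 1019 bp from that start, outside a 1 kb window.

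Krt18, the type I partner of Krt8, had a DHS directly over its start in replicate 1 only. Its height was 0.817 and its centre lay 1 bp from the start. In replicate 2 the nearest DHS to the Krt18 start was 11790 bp away, with a height of 1.08. The remaining simple-epithelial keratins were closed in both libraries. Krt7, the type II keratin of ductal epithelium, lay 22923 and 22893 bp from its nearest DHS. Krt19, a type I keratin of ductal epithelium, lay 4940 and 11680 bp away, and Krt20, the type I keratin of gut epithelium, 7170 and 5778 bp. The DHSs nearest to these genes had heights between 0.4 and 1.04. That of Krt7, at 1.04 and 0.879, stood above the median of all DHSs, 1.01 and 0.72. Those of Krt19 and Krt20 stood below it in both libraries.

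The sequences of the Krt8 and Krt18 sites are shown because they are the sites nearest to the simple-epithelial pair. They were read from the plus strand of the GRCm38 reference, which corresponds to the B6 parent, and the CAST allele was not analysed here. In these and the other printed sequences, capitals mark bases that lie in footprints of both libraries, that is, in short protected stretches that the authors called within DHSs. The Krt18 stretch is the part before the transcript start. The capitals show that the intronic Krt8 site held 14 bases protected in both libraries, while the upstream Krt8 site held footprints in each library but no base in common.
Krt8 upstream site, chr15:102005381-102005540: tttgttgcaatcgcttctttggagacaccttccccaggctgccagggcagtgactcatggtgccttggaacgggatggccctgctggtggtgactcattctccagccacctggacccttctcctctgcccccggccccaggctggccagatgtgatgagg
Krt8 intronic site, chr15:102002961-102003180: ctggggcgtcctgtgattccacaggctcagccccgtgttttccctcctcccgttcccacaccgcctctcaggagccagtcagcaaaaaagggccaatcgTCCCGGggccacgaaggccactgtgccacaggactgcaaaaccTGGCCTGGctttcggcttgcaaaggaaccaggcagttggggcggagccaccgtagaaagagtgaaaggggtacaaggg
Krt18 start site, chr15:102028099-102028179: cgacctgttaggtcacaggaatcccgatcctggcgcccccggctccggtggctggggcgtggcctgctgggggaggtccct
The letters TGANTCA, the consensus of AP-1, occurred 2 times in the upstream Krt8 site, at bases 51 to 57 and 91 to 97 counted from its left end. The GC box letters GGGCGG occurred in the intronic Krt8 site at bases 181 to 186. Motifs were searched on both strands, and a match of letters does not show binding. Over the central 200 bp, 13% of all DHSs in replicate 1 and 11.4% in replicate 2 contained TGANTCA, and 19.7% and 15.8% contained GGGCGG.

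Krt80, a type II keratin grouped here with the others, had the tallest DHS at the 5′ end of a keratin gene. It measured 11.9 in replicate 1 and 5.54 in replicate 2, with its centre 398 and 388 bp upstream of the start. A lower DHS of 2.54 and 2.02 lay inside the gene, 262 and 272 bp from the start. The upstream site also lay in an intron of Gm35853, a long non-coding RNA gene on the opposite strand. Of all open promoters, 37% and 54.3% were at least as high, so Krt80 stood near the middle of open promoters in both libraries. Its DHS, printed for that height, held 23 bases protected in both libraries.
Krt80 upstream site, chr15:101370481-101370640: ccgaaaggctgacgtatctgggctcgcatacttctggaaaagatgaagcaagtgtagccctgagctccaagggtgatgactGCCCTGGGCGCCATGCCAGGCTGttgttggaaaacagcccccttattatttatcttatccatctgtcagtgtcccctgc

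Krt10, the type I keratin of suprabasal epidermis, was open only through an internal start near its 3′ end. Its DHS measured 10.6 and 7.58, with a centre 3304 bp inside the gene from its 5′ end and 37 bp from the start of a short alternative transcript in GENCODE. A smaller DHS beside it had heights of 0.883 and 0.72. The site lay in a coding exon, and its sequence was rich in G and C (72.1%) and in CpG, with an observed over expected ratio of 1.189. The 5′ end of Krt10 itself had no DHS within 1 kb in either library. With RefSeq starts, which lack the short transcript, Krt10 was closed in both libraries. The sequence is printed because this coding stretch, not the 5′ end, made Krt10 count as open. It held 35 bases protected in both libraries.
Krt10 internal site, chr11:99385941-99386180: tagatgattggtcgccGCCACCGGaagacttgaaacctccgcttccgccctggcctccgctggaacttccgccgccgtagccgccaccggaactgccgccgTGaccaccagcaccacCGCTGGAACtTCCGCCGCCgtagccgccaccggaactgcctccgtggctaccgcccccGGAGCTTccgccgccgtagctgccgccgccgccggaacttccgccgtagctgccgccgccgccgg

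Krt86, a type II hair keratin, had a DHS upstream of its start that was higher in replicate 1 than in replicate 2. The heights were 3.02 and 0.95, with 76.8% and 88.5% of open promoters at least as high, and the centres lay 348 and 310 bp upstream. The shorter peak list kept it in replicate 1 only. Krt86 has close paralogs among the hair keratins, and its promoter window held the smallest share of unique sequence among the 9 open keratins: 72.8% of the 32-base words checked were found once in the genome. Within the DHS itself all 35 words checked were found once.
Krt86 upstream site, chr15:101473041-101473220: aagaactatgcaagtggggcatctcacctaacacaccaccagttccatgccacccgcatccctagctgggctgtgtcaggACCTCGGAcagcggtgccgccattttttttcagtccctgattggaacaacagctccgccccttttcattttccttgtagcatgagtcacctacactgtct

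The 5 keratins open in a single library were all low. Besides Krt18 at 0.817, replicate 1 had Krt222, a keratin-like gene at the edge of the chromosome 11 cluster, at 0.5, and Krt32, a hair shaft keratin, at 0.425. Replicate 2 had Krt5, the type II keratin of basal keratinocytes, at 0.675, and Krt31, a hair shaft keratin, at 0.56. At least 92.9% of open promoters in the same library were as high or higher than each of these 5 sites. The Krt5 site lay with its centre 1036 bp inside the gene and touched only the edge of the window. None of the 5 was in the shorter peak list. The median height of open keratin promoters was 1.71 in replicate 1 and 1.11 in replicate 2, against 8.85 and 6.25 for all open promoters, a ratio of 0.193 and 0.178. With the shorter peak list, which kept 4 and 3 open keratins, the mean ratio was 0.74 instead of 0.185.

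**Figure D2:**
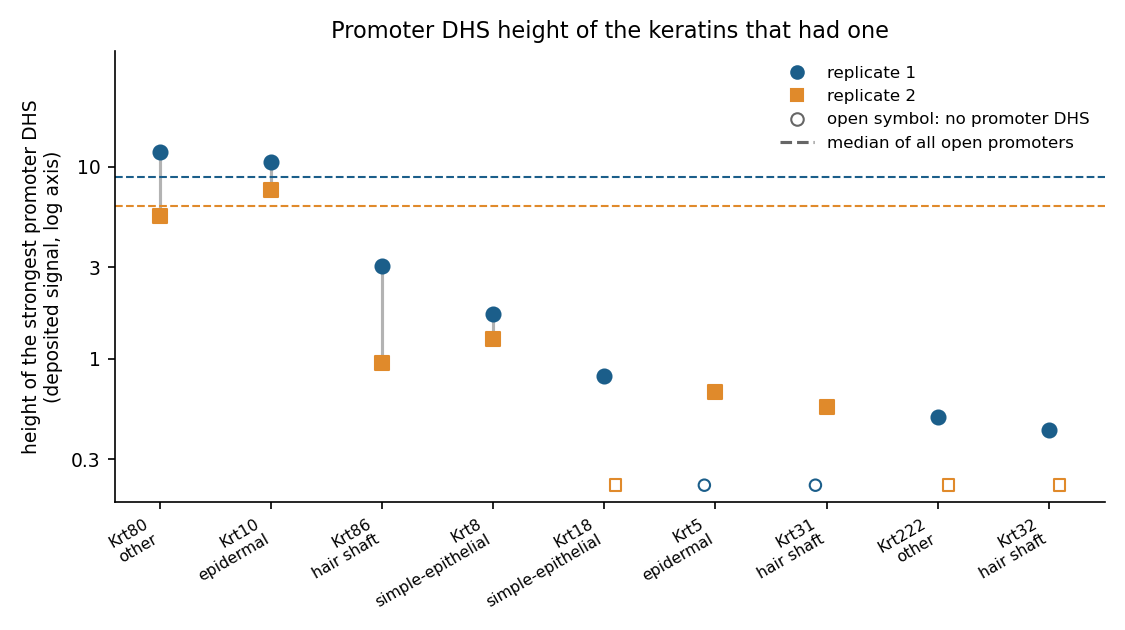
Height of the strongest promoter DHS (vertical log axis, deposited signal) in replicate 1 and replicate 2 for the 9 keratins that had one in either library, with dashed lines at the median of all open promoters in each library (8.85 and 6.25). Krt80 and Krt10 lie near these lines, and the other 7 keratins lie below them, 5 of them with a DHS in a single library (open symbols mark its absence in the other).

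The authors' deposited list of false discovery rates (FDR) along the genome gave similar counts at promoters. It is a second readout of the same libraries and not independent of the DHSs, so the likeness adds no separate evidence. A stretch with an FDR of at most 0.05 touched 7 keratin windows in replicate 1 and 7 in replicate 2, or 13.2% in each, and 70% and 70.4% of all genes. At an FDR of at most 0.001 the counts were 5 and 3 keratins, compared with 65.9% and 62.7% of all genes. The lowest deposited FDR was 5.73e-79 and 1.29e-46 for Krt10 and 9.17e-82 and 6.07e-23 for Krt80. It was 4.62e-17 and 0.00147 for Krt86, and 4.50e-08 and 1.08e-06 for Krt8. For Krt18 it was 0.00263 in replicate 1, with no stretch in replicate 2. Krt7, Krt19 and Krt20 had no stretch in their windows in either library. A single window, that of Krt24 (named, like Krt16 below, after its value was seen), held a stretch without a DHS, at an FDR of 0.0358 in replicate 2.

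Keratin promoters were poor in CpG, and their low openness was also seen against CpG-poor genes. The CpG observed over expected ratio in the 500 bp on either side of the 5′ end had a median of 0.319 for keratins and 0.561 for all genes. It was under 0.4 for 39 of 53 keratins (73.6%) and 39.5% of all genes, and no keratin reached 0.6, a level met by 46.6% of genes. Of the 39 CpG-poor keratins, 5 (12.8%) were open in replicate 1 and 6 (15.4%) in replicate 2. Both counts include Krt10, whose 5′ end had a ratio of 0.346 but whose DHS was the internal site with a ratio of 1.189. Of all 8608 CpG-poor genes, 29.4% and 31.8% were open. Simple-epithelial keratins had a median ratio of 0.420, with Krt18 highest at 0.546 and Krt7 lowest at 0.090. The TATA box letters TATAAA occurred in the 300 bp around the start (250 bp before and 50 bp after) of 25 keratins (47.2%) and 12.6% of all genes. The GC box letters GGGCGG occurred in 7 keratins (13.2%) and 43.8% of genes. Among the simple-epithelial keratins, TATAAA was found only at Krt20 and GGGCGG only at Krt19. The letters AAGGTCA, bound by the adrenal regulator SF-1, occurred at 1 keratin promoter, that of Krt20, and at 4.11% of all promoters.

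Because keratins have close paralogs, the share of unique sequence in their promoter windows was measured. In the windows around the 5′ ends of the 44 closed keratins, a median of 97.3% of 32-base words were found once in the genome. For the 9 open keratins the median was 89.8%. The window of Krt10 (95.4%) did not contain its internal DHS, within which 36 of 42 words checked (85.7%) were found once. The lowest share was 65.5%, in the closed window of Krt16, and no window was under 50%. Reads from near-identical copies are commonly discarded in mapping, and how the authors treated them is not given in the sources used here. The part of shared sequence in the closed promoters was not tested.

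Across whole clusters, DHSs were sparser than in the genome on chromosome 11 and denser on chromosome 15. The chromosome 11 cluster runs from Krt222 to Krt42 (chr11:99232761-100269871, 1037.1 kb) and held 39 DHSs in replicate 1 and 47 in replicate 2. That is 3.76 and 4.53 DHSs per 100 kb, compared with 4.95 and 5.96 across the genome. The ratio to the genome, 0.76, fell to 0.357 among the 50000 strongest DHSs of each library and was 0.941 with 50 kb added on each side. The chromosome 15 cluster runs from Krt80 to Krt18 (chr15:101347444-102032027, 684.6 kb) and held 54 and 45 DHSs, or 7.89 and 6.57 per 100 kb. Few of these sites touched a keratin promoter window: 4 and 3 on chromosome 11, and 5 and 5 on chromosome 15. Merged over both libraries there were 63 sites on chromosome 11, of which 23 were in both libraries, and 65 on chromosome 15, of which 34 were in both. The share of DHSs found in the other library was 59% and 48.9% on chromosome 11 and 63% and 75.6% on chromosome 15, against 62.2% and 51.8% genome-wide. Sites in both libraries were lower in replicate 2, by a median log2 ratio of -0.66 on chromosome 11 and -0.67 on chromosome 15, and -0.34 over all shared DHSs. Of the shared sites, 3 of 23 on chromosome 11 and 8 of 34 on chromosome 15 were higher in replicate 2, as were 23936 of 81485 over the genome.

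The strongest accessibility of either cluster lay between the genes Krt78 and Krt8, next to the simple-epithelial pair and not at a keratin promoter. This interval of 42.4 kb, singled out after its values were seen, held 9 DHSs in replicate 1 and 7 in replicate 2, or 21.2 and 16.5 per 100 kb. The tallest site (18.2 and 10.4) lay 23253 bp upstream of the start of Krt78, an internal stratified keratin. Only 1.66% of all DHSs in replicate 1 and 2.62% in replicate 2 were at least as high. Its sequence had 78.2% G and C and a CpG ratio of 0.717. The second tallest site by mean height measured 13.6 and 4.01, 19603 bp upstream of Krt78. Another, 20012 bp downstream of the Krt8 start and beyond the 3′ end of that gene, measured 6.73 and 5.5. GENCODE M21 annotates no gene over these sites, while RefSeq holds a predicted long form of Krt78 whose intron spans them. The 23.7 kb between Krt8 and Krt18 held 4 and 3 DHSs, none taller than 1.71 and 1.27.

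A pair of these sites is printed, the first because it was the tallest of both clusters and the second because a motif match lay wholly in its footprints. The first held 32 bases protected in both libraries, and the second 31.
Site 23253 bp upstream of Krt78, chr15:101977441-101977660: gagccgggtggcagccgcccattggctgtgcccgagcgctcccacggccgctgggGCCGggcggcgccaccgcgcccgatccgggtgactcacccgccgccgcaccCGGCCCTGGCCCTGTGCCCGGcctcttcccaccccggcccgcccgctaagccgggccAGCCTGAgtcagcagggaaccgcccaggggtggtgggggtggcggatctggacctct
Site 20012 bp downstream of the Krt8 start, chr15:101984401-101984560: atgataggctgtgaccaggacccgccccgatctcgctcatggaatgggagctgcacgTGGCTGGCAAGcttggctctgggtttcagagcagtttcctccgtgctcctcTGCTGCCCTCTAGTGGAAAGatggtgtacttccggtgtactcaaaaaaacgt
The first site contained 2 matches to the AP-1 letters TGANTCA. That at bases 168 to 174 overlapped footprints by 3 bases in replicate 1 and 4 in replicate 2. It also held 4 matches to GGGCGG. The second site contained a match to the CTCF consensus at bases 113 to 124, all 12 bases of which lay in footprints of both libraries. CTCF is a zinc finger protein found at chromatin loop anchors and domain borders. Over both clusters, the central 200 bp held a CTCF match in 9 of 93 DHSs (9.68%) in replicate 1 and 6 of 92 (6.52%) in replicate 2, against 4.57% and 3.11% of all DHSs. The SF-1 letters AAGGTCA occurred in 3.23% and 6.52% of cluster DHSs and in 6.23% and 5.79% of all DHSs.

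**Figure D3:**
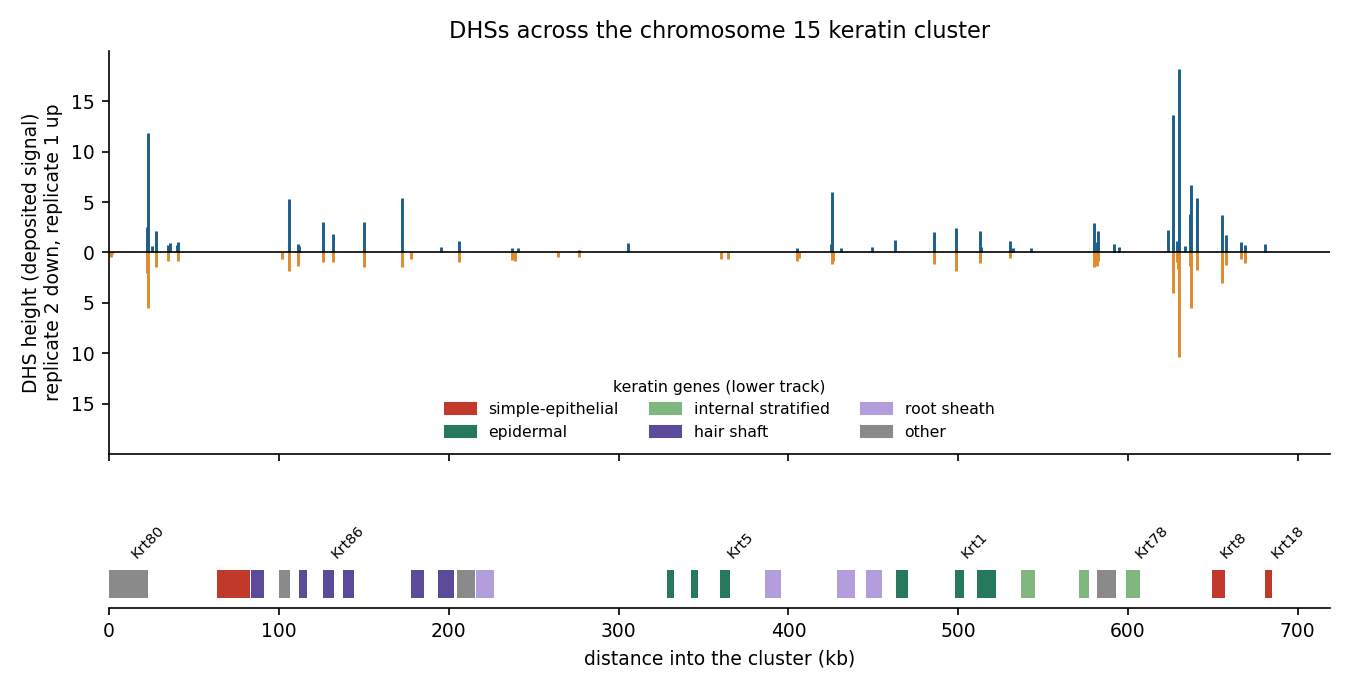
DHS heights (vertical axis, deposited signal) along the chromosome 15 cluster (horizontal axis, kb from its first gene), with replicate 1 drawn upward and replicate 2 downward; boxes below are keratin genes coloured by class. The tallest DHSs stand between Krt78 and Krt8 (18.2 and 10.4) and just upstream of Krt80 (11.9 and 5.54), and DHSs between these ends reach at most 5.99 in replicate 1 and 1.86 in replicate 2.

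The middle of the chromosome 15 cluster, from Krt83 to Krt78, was lower than the ends. It holds hair, root sheath, epidermal, internal stratified and other type II genes. Its 18 keratins spread over 469.2 kb with 27 and 21 DHSs, or 5.75 and 4.48 per 100 kb. That was above the genome-wide 4.95 in replicate 1 and below the 5.96 in replicate 2. None of the DHSs in this stretch was taller than 5.99 and 1.85. In replicate 1 no DHS there touched a keratin promoter window, and in replicate 2 only that of Krt5 did. The group from Krt80 to Krt86 had 13 DHSs in each library over 132.5 kb, 9.81 per 100 kb. The fifth strongest site of the cluster by mean height lay here, in an exon of Krt88 5766 bp downstream of its start, at 5.35 and 1.86.

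On chromosome 11 the internal Krt10 site (10.6 and 7.58) was the tallest, followed by an intergenic site 26840 bp upstream of Krt20 (6.77 and 2.11). A pair of neighbouring sites 23460 and 23090 bp upstream of Krt19 measured 4.41 and 4.97 in replicate 1, and 1.81 and 0.924 in replicate 2. An intergenic site 4877 bp upstream of Krt28, a root sheath keratin, measured 4.38 and 1.36. All of these were higher in replicate 1. The group from Krt222 to Krt40 had 5.48 and 6.12 DHSs per 100 kb, close to the genome-wide 4.95 and 5.96. The 258.7 kb from Krt33a to Krt42, which hold hair shaft and epidermal genes with Krt13, Krt19 and Krt42, had 3.87 and 2.32.

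**Figure D4:**
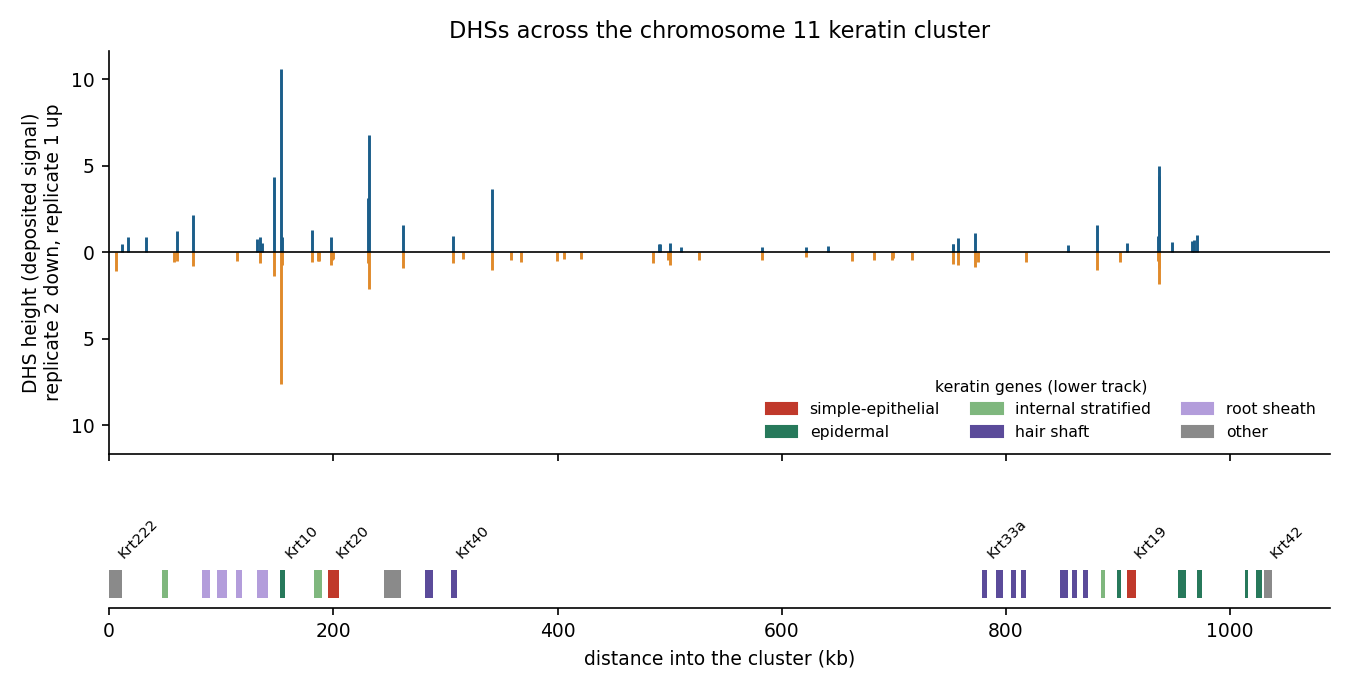
DHS heights (vertical axis, deposited signal) along the chromosome 11 cluster (horizontal axis, kb from its first gene), with replicate 1 drawn upward and replicate 2 downward; boxes below are keratin genes coloured by class. The internal Krt10 site (10.6 and 7.58) is the tallest. In the gap of the keratin track, which holds keratin-associated protein genes, DHSs reach at most 3.69 in replicate 1 and 1 in replicate 2.

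The keratin-associated protein genes, whose products crosslink hair keratins, were also mostly closed. On chromosome 11 they fill the 468 kb between Krt40 and Krt33a, where 12 DHSs in replicate 1 and 22 in replicate 2 gave 2.56 and 4.7 per 100 kb, none taller than 3.69 and 1. Of 57 such genes on all chromosomes, 4 were open in replicate 1 (7.02%) and 6 in replicate 2 (10.5%), against 69.4% and 69.1% of all genes. A single gene, Krtap16-1, named after its values were seen, was open in both, at 0.517 and 0.675. Outside the clusters the first protein-coding neighbour was open in both libraries at 3 of 4 borders. Among all protein-coding genes 65.8% were open in both, so this count does not set the borders apart. Smarce1, a chromatin remodelling subunit, measured 5.73 and 4.2 and Eif1, a translation initiation factor, 31.4 and 23.8 beside the chromosome 11 cluster. Eif4b, also a translation initiation factor, measured 24.5 and 21.7 beyond Krt18, while 6030408B16Rik, beyond Krt80, was closed in both libraries.

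Inside keratin genes and outside promoter windows, DHSs lay mainly in exons. There were 20 such DHSs in replicate 1 and 22 in replicate 2, of which 15 in each (75% and 68.2%) had their centre in an exon. In all other protein-coding genes the shares were 11.9% and 11.5%. Keratin genes have short introns, and exons made up 27.8% of their length compared with 7.12% for other genes. The exonic DHSs clustered near the 3′ ends, at a median of 86.9% and 91.1% of the gene length, but exonic DHSs of other genes did too, at 83.7% and 81.7%. Exonic DHSs were found in both libraries for 8 of the 53 keratins: Krt1, Krt20, Krt28, Krt77, Krt79, Krt86, Krt88 and Krt90. The matching share among all genes was not measured, so this count cannot be called high or low. Chosen after their values were seen, the Krt1 site measured 2.42 and 1.85 and the Krt77 site 2.15 and 1.03. Both are epidermal type II keratins, and their sites had 73.1% and 70.5% G and C in replicate 1, near the 72.1% of the internal Krt10 site.

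**Figure D5:**
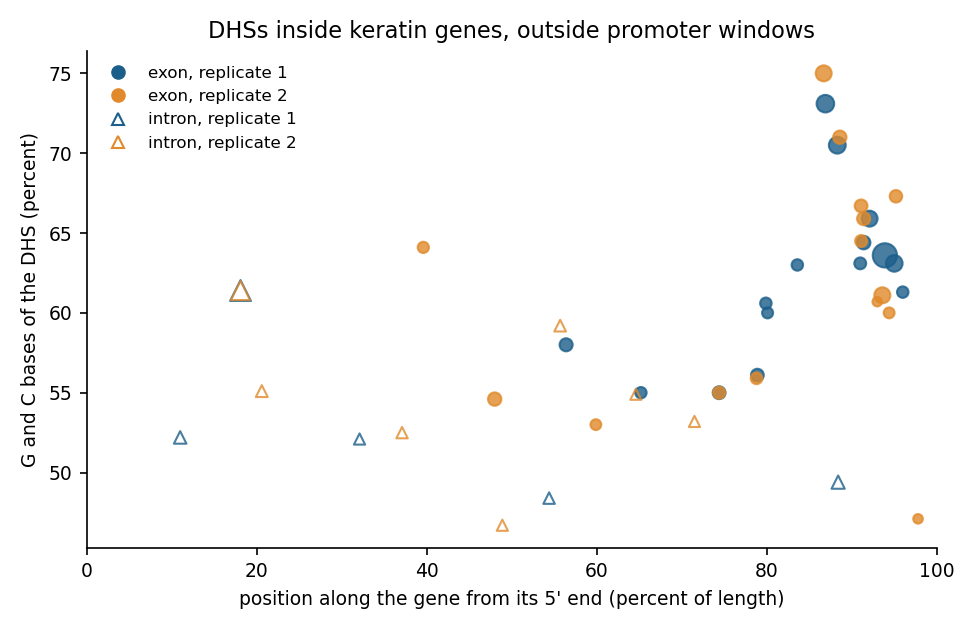
DHSs inside keratin genes and outside promoter windows, by position along the gene (horizontal axis, percent of gene length from the 5′ end) and by G and C content (vertical axis, percent), with filled circles for exons, open triangles for introns and symbol area rising with height. Exonic sites gather toward the 3′ end, at a median of 86.9% of the gene length in replicate 1 and 91.1% in replicate 2, and the intronic Krt8 site stands near the 5′ end.

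Genes of 4 further lists related to keratins were open at higher shares than the keratins. For 3 of these lists the shares were at or above the 69.4% and 69.1% of all genes. The keratin-associated proteins described above went the other way, at 7.02% and 10.5% against 13.2% and 11.3% of keratins. Of 15 other intermediate filament genes, 14 had an open promoter in replicate 1 and 13 in replicate 2. Vim, the filament of mesenchymal and steroidogenic cells, measured 5.2 and 6.47, Des of muscle 1.2 and 0.791, and Prph of peripheral neurons 1.64 and 0.862, while Gfap was closed. Of 12 desmosome and plakin genes, which anchor keratin filaments, 10 were open in each library. Dsp measured 2.58 and 1.7, Jup 25.6 and 16.7, Pkp1 0.625 and 0.56, and Pkp2 3.61 and 2.19. Of 16 epithelial regulators and adhesion genes, 14 and 12 were open, but several were low: Cdh1 (E-cadherin) measured 0.858 and 0.551, Epcam 2.05 and 1.15, and Grhl2 0.517 and 0.675, against 14 and 8.25 for Grhl1. The cornified envelope genes, expressed with epidermal keratins, were open in 3 and 5 of 11 cases. Lor and Ivl were closed in both libraries, and Flg (0.355) and Sprr1a (0.409) were open in replicate 2 only. Open promoters of these 4 lists were also low, with medians below the 8.85 and 6.25 of all open promoters. The medians were 2.58 and 2 for intermediate filaments, and 3.1 and 2.2 for desmosome and plakin genes. For epithelial regulators they were 1.05 and 1.04, and for cornified envelope genes 0.708 and 0.409. Keratins, at 1.71 and 1.11, lay between these lists.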

How the data were processed

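Each library's deposited files in mm10 were used: 2 peak lists, an FDR list and a footprint list. Peak height is a deposited signal value, scaled by the authors so that heights are whole multiples of 1 step per library (0.00833 and 0.00888). The FDR list holds q-values of at most 0.05 from the authors, and all deposited footprints carry the same FDR limit of 0.01. The aligner, the callers and their filters were not given in the sources used here. The longer peak list was used. Genes and starts came from GENCODE M21 on GRCm38, with repeated symbols dropped, and sequence from the RefSeq copy of that assembly. Krt74 and Krt85 were dropped, having no protein-coding gene of that symbol in M21. Overlaps needed 1 bp. Named were the simple-epithelial keratins, open keratins, the 5 strongest sites per cluster, flanking genes and the first 4 genes of each list. Members and lists were chosen with earlier results of these data known. Analyses used Python 3.11.15, numpy 2.4.6 and pandas 2.3.3, and overlap counting was tested on simulated data. Alternatives were other windows, starts, peak lists, height limits and overlaps, and leaving out each library.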

Additional observations from a re-analysis of the deposited data

How the results depend on the processing

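No paired analysis was possible because the samples form 1 group and no comparison between groups exists. The count of keratins open in both libraries (4) was 3 within 0.5 kb, 5 within 2 kb, and 2 with RefSeq starts, an alternative chosen after seeing the data, by which Krt8 and Krt10 were closed; single libraries gave 6 to 7. For simple-epithelial keratins (1) it was 0 within 0.5 kb and 0 with RefSeq starts, and 1 to 2 in single libraries. For epidermal, hair and root sheath keratins (2) it was 1 with the own 5′ end only, 1 with the 50000 strongest DHSs, 1 with the shorter list and 1 with RefSeq starts, and 3 to 4 in single libraries. The height ratio of open keratin to all open promoters (0.185) was 0.163 within 2 kb, 0.148 with the own 5′ end, and 0.74 with the shorter list, which kept only 4 and 3 keratins. DHS density over the genome on chromosome 11 (0.76) was 0.614 with the shorter list, 0.357 with the 50000 strongest and 0.941 with 50 kb added on each side, and on chromosome 15 (1.35) it was 1.1 to 1.59 in single libraries. Sharing rose from 54% to 70% on chromosome 11 and from 69.3% to 81.1% on chromosome 15 with the 50000 strongest DHSs. In the remaining 35 combinations of a result and a setting, values moved by less than the spread between the libraries or counts by at most 1.5 times. Some of these could not have moved. For measured values, a single library always lies within that spread of the mean of both. Dividing heights by the median height cannot change a ratio of medians. Such combinations say nothing about stability. The causes of the shifts listed above were not tested beyond what each setting removes. With the own 5′ end only, Krt10 had no promoter DHS (height 0), and within 2 kb the mean Krt8 height rose from 1.49 to 3.37 through the intronic site. With 2 libraries the spread is poorly known, and low sites near the calling limit were found in a single library.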
